A study of Rattus norvegicus with 9 samples.

Results

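The genes described here encode the cell's main ATP-driven protein-folding machines and their J-domain partners: the Hsp70 and Hsp110 proteins, the J-domain proteins of classes A, B and C, the Hsp90 proteins, the mitochondrial chaperonin Hsp60 with its lid Hsp10, and the 8 subunits of the cytosolic chaperonin TRiC. They were taken by RefSeq symbol (symbols beginning with Dnaja, Dnajb, Dnajc, Hspa, Hsp90, Hspd, Hspe or Hsph, and Tcp1 or Cct followed by a number), without the small heat shock proteins, and had to reach an expected count of at least 10 in at least 3 of the 9 libraries. Of 13752 genes listed in any library, 62 met this rule. There were 11 Hsp70 genes, 2 Hsp110 genes, 4, 9 and 23 J-domain genes of classes A, B and C, 3 Hsp90 genes, 2 genes for Hsp60 and Hsp10 and 8 chaperonin subunits. A further 8 genes with such symbols were listed but stayed below the minimum (Cct6b, Cct8l2, Dnajb14, Dnajb3, Dnajb7, Dnajc5g, Dnajc6 and Hspa4l). Dnajc24, with a mean count of 7.78, was just inside the minimum, and Dnajb14 (4.78) and Hspa4l (4.33) were just outside it.

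Messenger RNA was measured in gastrocnemius, which the sciatic nerve supplies through its tibial branch, from male rats labelled as 8 weeks old, in 3 groups of 3 libraries. SHAM muscle came from sham-operated rats. DN muscle came from rats with a sciatic nerve injury and no stimulation. DN-SM muscle came from rats with the same injury and daily stimulation from surgery on, for 4 weeks, by surface electrodes over the muscle (25 V, 1 mA, square pulses at 2 Hz, pulse width 300 ms). All animals were anaesthetised, and those of SHAM and DN carried the electrodes for 10 min without current. The labels do not give the kind of nerve injury, the time of collection in SHAM and DN, or whether each library came from its own animal, so p-values measure the spread between these samples, which may be technical. Totals of expected counts ran from 7926445 to 8893843 per library, and the 62 genes took 0.508% to 0.688% of them. Of 11 muscle fibre markers, 10 were listed. Levels are given in FPKM, the authors' measure, scaled to transcript length and sequencing depth. The summed level of these markers was 133220.9 to 139893.3 FPKM in SHAM, 143805.7 to 157750.2 in DN and 149214.2 to 153614.1 in DN-SM. Every SHAM library was thus below every library of injured muscle, though none of the 10 markers passed the test described below in any comparison. Acta1 made the largest part of the sum, with means of 67800, 81300 and 79800 FPKM in SHAM, DN and DN-SM. The markers did not move together: 7 had log2 fold changes above 0 in DN against SHAM and 3 below. Among the latter, Myh4 had means of 3680 FPKM in SHAM and 926 in DN.

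Chaperones bind unfolded stretches of other proteins and release them in cycles of ATP binding. J-domain proteins bring substrates to Hsp70 and trigger its ATP hydrolysis, Hsp110 proteins help Hsp70 exchange ADP for ATP, Hsp90 matures kinases and steroid receptors, and TRiC folds actin and tubulin inside a closed chamber. In skeletal muscle these proteins maintain the contractile filaments and the Z-disc, and mutations of the J-domain gene Dnajb6 cause a limb-girdle muscular dystrophy. Separate transcriptional programmes are known for them. Heat shock factors bind inverted GAA units, the heat shock element, and stress in the endoplasmic reticulum (ER) acts through the ER stress element.

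Promoter windows of 300 bases (250 before and 50 after the start site, RefSeq, build GRCr8) were present for 50 of the 62 genes. They are shown because the genes that hold an element are followed below in the muscle data, chiefly those with its longer form of 3 units or the ER stress element. The 12 without a window, which were not searched, were Dnaja2, Dnajb4, Dnajc2, Dnajc8, Dnajc11, Dnajc12, Dnajc15, Dnajc22, Dnajc24, Hspa12a, Hspa1b and Hsp90aa1. The heat shock element was searched on both strands as GAANNTTC, which was in 10 of the 50 windows (20.0%) and in 8.59% of all 33469 windows, and as TTCNNGAA, which was in 11 (22%) and in 8.77%. The longer form with 3 units, GAANNTTCNNGAA or TTCNNGAANNTTC, contains both short forms and was in 6 windows (12.0%, against 0.798% of all), those of Hspd1, Hspe1, Hsph1, Hspa8, Dnaja1 and Cct4. The ER stress element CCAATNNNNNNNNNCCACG was in 3 windows (6.0%, against 0.0657% of all), those of Hspa5, Hsp90b1 and Dnajc3. The window of Hspa1a held no match to any of these forms. A match describes letters and does not show that a factor binds there.

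The 3-unit heat shock elements are in capitals in the stretches that follow, written 5′ to 3′ along each gene's strand. Hspe1 is shown from chr9:64084232-64084309 (plus strand). Hspd1 (Hsp60) and Hspe1 (Hsp10) lie head to head, with start sites 290 bases apart and 211 bases of window in common, so that this element counts for both genes. Hsph1 is from chr12:10427302-10427367 and Hspa8, with 2 elements, from chr8:50080271-50080501. In Dnaja1 (chr5:60638413-60638425) and Cct4 (chr14:101193082-101193094) the element lies after the start site and is given alone. These stretches are all from the plus strand.
Hspe1: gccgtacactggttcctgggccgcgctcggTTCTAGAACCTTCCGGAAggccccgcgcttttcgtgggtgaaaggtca
Hsph1: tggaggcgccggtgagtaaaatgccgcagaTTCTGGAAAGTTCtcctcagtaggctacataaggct
Hspa8: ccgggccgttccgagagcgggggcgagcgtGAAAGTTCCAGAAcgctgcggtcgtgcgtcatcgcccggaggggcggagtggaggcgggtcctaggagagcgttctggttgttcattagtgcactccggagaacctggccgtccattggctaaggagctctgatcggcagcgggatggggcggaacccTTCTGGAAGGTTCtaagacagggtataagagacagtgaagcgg
Dnaja1: GAACTTTCCAGAA
Cct4: TTCTGGAAGGTTC

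The ER stress elements are in capitals in the next stretches. Hspa5 is from chr3:38452943-38453015 (plus strand), Dnajc3 from chr15:102432504-102432582 (plus strand) and Hsp90b1 from chr7:23012317-23012499 (minus strand). Hsp90b1 holds 2 matches, the second of them on the opposite strand.
Hspa5: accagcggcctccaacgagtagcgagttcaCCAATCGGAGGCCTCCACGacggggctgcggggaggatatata
Hsp90b1: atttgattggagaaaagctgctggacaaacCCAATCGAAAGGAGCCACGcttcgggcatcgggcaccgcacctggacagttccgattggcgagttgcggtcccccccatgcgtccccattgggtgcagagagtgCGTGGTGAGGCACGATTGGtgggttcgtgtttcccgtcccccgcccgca
Dnajc3: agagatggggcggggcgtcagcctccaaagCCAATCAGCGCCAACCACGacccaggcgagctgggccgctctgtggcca

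Transcripts of 2 genes dominated the machinery in every library. Hsp90ab1, the constitutive cytosolic Hsp90, had a mean of 647 FPKM over the 9 libraries (566.4 to 740.9). Hspa8, the constitutive cytosolic Hsp70, had 611 FPKM (445.3 to 742.6). Their ranges overlapped, and Hspa8 was the higher in DN replicate 3 and DN-SM replicates 1 and 2. Together they made 45.4% to 47.1% of the summed FPKM of the 62 genes. Next came Dnajb5, a class B J-domain protein (129 FPKM), Dnaja4 (88.2), Cct5 (87.2), Hspe1 (85.0), Dnajc15, a J-domain protein of the mitochondrial inner membrane (76.6), Hspa9, the mitochondrial Hsp70 (69.6), and Dnaja3, its class A partner (68.7). The lowest level was that of Hspa12a, at 0.907 FPKM. The plot of levels by family shows this spread.

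**Figure D1:**
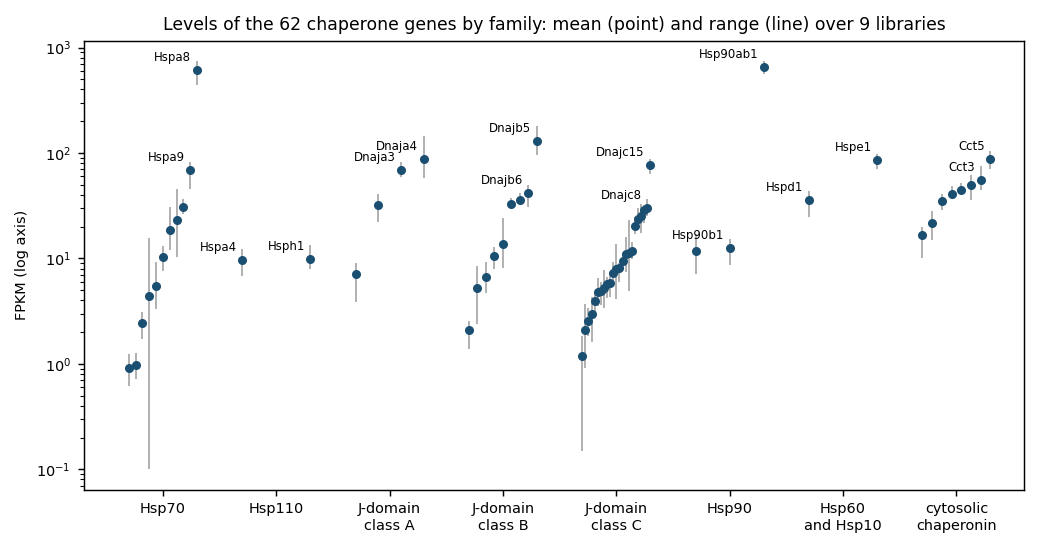
Level of each of the 62 chaperone genes, grouped by family along the x axis and ordered by level within a family. Points are means of the 9 libraries in FPKM on a log axis and lines run from the lowest to the highest library (a value under 0.1, as for Hspa1b in 3 libraries that do not list it, is drawn at 0.1); Hsp90ab1 (647) and Hspa8 (611) stand above all other genes.

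The expected counts were tested in 1 fit of all 9 libraries with edgeR's quasi-likelihood test, with p-values adjusted by Benjamini-Hochberg over all 10129 genes tested and a threshold of 0.05. Of the 62 chaperone genes, 61 were tested, and Dnajc24 was too low. Changes are log2 fold changes with their standard error (SE), and levels in groups are means ± SD with n = 3. Some libraries stood apart. SHAM replicate 3 was the lowest SHAM library for 32 of the 61 genes (52.5%, against 38.6% of all genes tested), and DN replicate 3 was the highest DN library for 41 (67.2%, against 49.9%). In muscle RNA, fewer cells of a type and less RNA per cell cannot be told apart. Markers of other cells also differed. Summed Schwann cell markers (7 of 7 listed, 2 of 7 higher in DN than in SHAM by the test, Mbp and Ngfr) were 60.2 to 69.0 FPKM in SHAM, 131.7 to 307.5 in DN and 77.9 to 171.9 in DN-SM. Summed endothelial markers (7 of 7 listed, 3 of 7 higher in DN) were 95.6 to 118.6, 144.4 to 190.5 and 131.0 to 149.1 FPKM. Of these 7, 6 had log2 fold changes above 0 in DN against SHAM, Tek barely (0.03), and Kdr was below (-0.09). Of all 10129 genes tested, 260 rose there. Myog, a myogenic marker, rose too (0.86, edgeR adjusted p = 0.018). Cdh5, an endothelial marker, was also higher in DN-SM than in SHAM (edgeR adjusted p = 0.0448). The part of these other cells in the results was not tested.

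The comparison of DN with SHAM addressed nerve injury, with the time of collection given for neither group. Of the 61 chaperone genes, 2 fell and none rose (3.28%), where 4.26% of all genes tested changed and 1.70% fell. Both that fell are class C J-domain genes tied to the ribosome: Dnajc2, the J-domain protein of the ribosome-associated complex that works on emerging chains, and Dnajc21, which acts in the maturation of the large ribosomal subunit. At an unadjusted p under 0.05 there were 16 genes (5 higher and 11 lower), a share of 26.2% beside 22.3% of all genes. Below 0 lay the log2 fold changes of 45 of the 61 genes and above 0 those of 16, with a median of -0.15 beside -0.01 over all genes tested. Overlap of libraries was read from FPKM, which the authors scaled otherwise than the counts in the fit. By FPKM the DN libraries lay entirely above the SHAM libraries for 5 genes (Cct3, Cct5, Dnajb1, Dnajb13 and Dnajc12), beside 15.9% of all genes. They lay entirely below for 3 (Dnajb12, Dnajc2 and Dnajc21), beside 6.91%. In the fit, 1106 of all genes were higher and 1150 lower at an unadjusted p under 0.05.

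Dnajc2 had 11.8, 13.6 and 6.25 FPKM in SHAM replicates 1 to 3. It had 4.12, 4.41 and 4.24 in DN. In DN-SM it had 8.13, 8.82 and 9.87. The DN libraries lay close together and below every other library, and SHAM replicate 3 was nearest to them. Dnajc2 fell by 1.38 on the log2 scale in DN against SHAM (SE 0.244, edgeR adjusted p = 0.0136). In DN-SM against DN its log2 fold change was 1.16 (SE 0.245, edgeR adjusted p = 0.144) and did not pass. The call in DN against SHAM was lost without DN replicate 1 (adjusted p = 0.0518), without DN replicate 3 (0.0765) and with limma on log2(FPKM + 1) without a filter (0.056).

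Dnajc21 had 17.1, 22.9 and 10.1 FPKM in SHAM, 6.40, 4.86 and 4.98 in DN, with 12.3, 11.1 and 12.2 in DN-SM. Again every DN library was below every library of the other groups. Dnajc21 fell by 1.70 on the log2 scale in DN against SHAM (SE 0.277, edgeR adjusted p = 0.0114). In DN-SM against DN its log2 fold change was 1.22 (SE 0.28, edgeR adjusted p = 0.144). The call in DN against SHAM was lost without DN replicate 3 (adjusted p = 0.0616). Without SHAM replicate 3 the log2 fold changes were -1.64 for Dnajc2 and -1.95 for Dnajc21 (edgeR adjusted p = 0.00157 for each). Hspa14, the Hsp70 protein that pairs with Dnajc2 at the ribosome, had 2.29 ± 0.315 FPKM in SHAM muscle, 2.53 ± 0.359 in DN muscle and 2.46 ± 0.697 in DN-SM muscle.

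**Figure D2:**
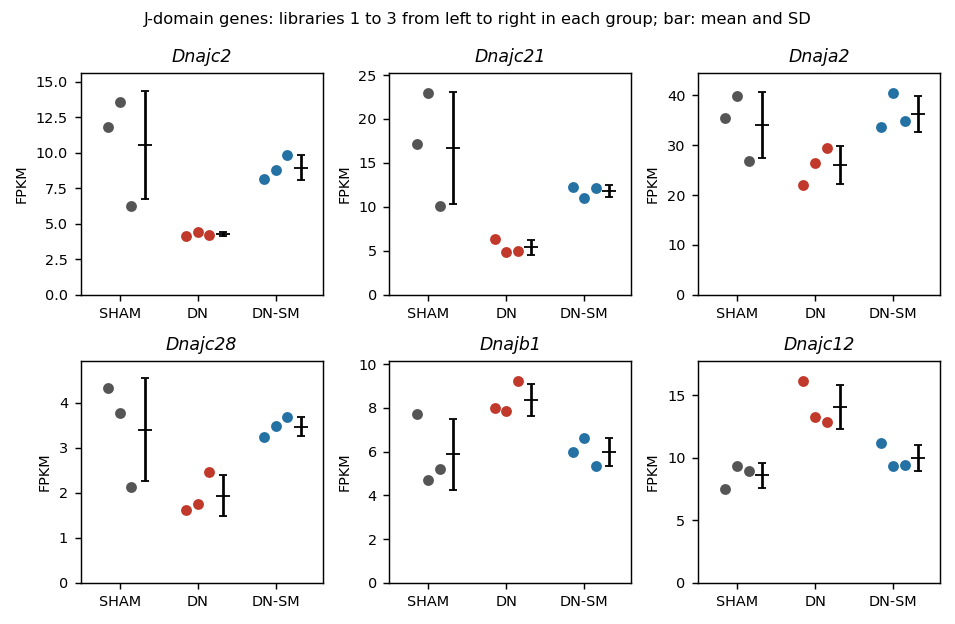
FPKM of 6 J-domain genes in each library (points, replicates 1 to 3 from left to right in each group), with the mean and SD of the 3 libraries (bar); each y axis starts at 0. In Dnajc2 and Dnajc21 the DN libraries lie below all others, and in Dnajc12 they lie above all others (12.9 to 16.1).

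The other class C genes were not called in DN against SHAM. Dnajc12, a co-chaperone of the aromatic amino acid hydroxylases, had 7.50, 9.38 and 8.91 FPKM in SHAM, 16.1, 13.3 and 12.9 in DN, with 11.2, 9.38 and 9.45 in DN-SM. Its DN libraries were above all others, and its log2 fold change of 0.63 in DN against SHAM did not pass (SE 0.192, edgeR adjusted p = 0.0819). With limma on log2(FPKM + 1), filtered at an FPKM of 1 in 3 libraries, it passed (log2 fold change 0.65). Dnajc28 had 4.32, 3.77 and 2.12 FPKM in SHAM, 1.61, 1.74 and 2.46 in DN, with 3.25, 3.48 and 3.69 in DN-SM. SHAM replicate 3 lay within the DN range, and the log2 fold change in DN against SHAM was -0.87 (edgeR adjusted p = 0.0913). Of the 22 class C genes tested, 18 had log2 fold changes below 0 and 4 above.

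Class B of the J-domain genes had 3 of 9 log2 fold changes above 0 in DN against SHAM, none of them called. Dnajb1, the main heat-inducible Hsp40, had 7.72, 4.71 and 5.18 FPKM in SHAM, 7.97, 7.87 and 9.21 in DN, with 6.0, 6.61 and 5.34 in DN-SM. The DN libraries were above the others, SHAM replicate 1 coming nearest (log2 fold change 0.45, SE 0.162, edgeR adjusted p = 0.129). Dnajb6, which suppresses protein aggregation, had 50.2, 47.7 and 37.7 FPKM in SHAM, 30.4, 33.2 and 45.04 in DN, with 41.2, 39.6 and 46.5 in DN-SM. Its DN and SHAM libraries overlapped (log2 fold change -0.40, edgeR adjusted p = 0.115). Dnajb5, the most abundant class B gene, had 135 ± 28.2 FPKM in SHAM muscle, 144 ± 41.8 in DN muscle and 109 ± 18.2 in DN-SM muscle.

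Class A holds the general partners of Hsp70. Dnaja2 had 35.5, 39.8 and 26.8 FPKM in SHAM, 21.97, 26.4 and 29.5 in DN, with 33.7, 40.4 and 34.8 in DN-SM. The DN libraries overlapped SHAM only at SHAM replicate 3 (log2 fold change -0.47, edgeR adjusted p = 0.102). Dnaja1 had 8.46, 8.98 and 4.82 FPKM in SHAM, 3.88, 5.17 and 7.72 in DN, with 8.44, 9.07 and 8.20 in DN-SM (log2 fold change -0.49 in DN against SHAM, edgeR adjusted p = 0.274). Here too SHAM replicate 3 lay among the DN libraries. Dnaja4 and the mitochondrial Dnaja3 had levels of 87.8 ± 19.8 and 71.2 ± 7.19 FPKM in SHAM and 104 ± 37.3 and 68.9 ± 11.7 in DN.

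Neither Hsp110 gene was called. Hsph1 had 13.5, 10.7 and 9.97 FPKM in SHAM, 7.90, 8.06 and 10.5 in DN, with 8.71, 8.65 and 9.85 in DN-SM. DN replicate 3 reached the SHAM range (log2 fold change -0.44 in DN against SHAM, SE 0.129, edgeR adjusted p = 0.0759). DESeq2 called Hsph1 lower at an adjusted p of 0.0497, with Dnajc2 and Dnajc21, where it called 8.41% of all genes. Hspa4 had 9.92 ± 2.82 FPKM in SHAM muscle, 8.44 ± 0.97 in DN muscle and 10.7 ± 0.806 in DN-SM muscle.

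None of the 11 Hsp70 genes passed the test in DN against SHAM, where 1 had an unadjusted p under 0.05. Hspa8 had 719.0, 558.0 and 565.1 FPKM in SHAM, 445.3, 596.0 and 742.6 in DN, with 645.4, 630.3 and 595.8 in DN-SM. Its DN libraries spanned the whole range of the others. Hspa8 took 78.0%, 78.4% and 79.5% of the summed Hsp70 FPKM in SHAM, DN and DN-SM. Hspa5 (BiP), the Hsp70 of the ER, had 32.6 ± 3.0 FPKM in SHAM muscle, 30.2 ± 5.66 in DN muscle and 29.2 ± 1.85 in DN-SM muscle. Hspa9 (mortalin), which pulls proteins into mitochondria, had 69.0 ± 12.6, 62 ± 16.5 and 77.8 ± 3.0 FPKM.

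The heat-inducible Hsp70 is encoded by Hspa1a and Hspa1b, near-identical neighbours whose reads cannot be split with certainty. Hspa1b was listed in 6 of the 9 libraries and took 0% to 34.4% of the counts of both genes. The genes are therefore given as a sum. Their transcript lengths differ (4045 and 2455 bases), so summed FPKM still depends on the split between them, while summed counts do not. Summed counts may still depend on reads shared with other genes. In DN replicate 1 Hspa1b had a count of 0 and Hspa1a one of 757.93, which is not a whole number. Hspa1l, another Hsp70 gene, had 390.01 there. Summed counts were 1351, 557 and 940 in SHAM, 758, 617 and 1917 in DN, with 484, 441 and 920 in DN-SM. The summed level was 44.6, 19.1 and 26.4 FPKM in SHAM, 21.4, 18.8 and 61.0 in DN, with 13.7, 12.4 and 29.5 in DN-SM. The highest and the next-to-highest library of all were in different groups, DN replicate 3 and SHAM replicate 1, and all groups overlapped. Group means were 30.1 ± 13.2, 33.7 ± 23.6 and 18.5 ± 9.48 FPKM.

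The Hsp90 family was set by Hsp90ab1, which made 96.7% of its FPKM in SHAM muscle, 96.7% in DN muscle and 95.7% in DN-SM muscle. Hsp90ab1 had 740.9, 630.8 and 652.2 FPKM in SHAM, 635.5, 615.0 and 732.2 in DN, with 592.0, 566.4 and 655.5 in DN-SM. All groups overlapped (log2 fold change -0.10 in DN against SHAM, SE 0.114, edgeR adjusted p = 0.644). The inducible Hsp90aa1 had 10.4 ± 3.36, 11.6 ± 4.86 and 13.0 ± 2.16 FPKM, and Hsp90b1 (GRP94), the Hsp90 of the ER, had 12.6 ± 2.41, 11 ± 2.21 and 14.1 ± 0.468. Hsp90b1 and Hsp90aa1 were not ordered: Hsp90b1 was the higher in 5 of the 9 libraries.

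Transcript levels of the chaperonin subunits were unequal. TRiC is built of stacked rings in which each of the 8 subunits occurs once per ring. Cct5 was the highest of them in 9 of 9 libraries (mean 87.2 FPKM) and Cct8 the lowest in 9 of 9 (16.7), a ratio of 5.22. Between them came Cct3 (55.7), Tcp1 (50.1), Cct7 (44.9), Cct2 (40.7), Cct4 (35.3) and Cct6a (21.7). Cct3 was above Tcp1 in only 6 of 9 libraries, so these neighbours did not differ beyond their spread, while Cct4 was above Cct6a in 9 of 9.

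No subunit was called. Cct3 had 55.9, 44.5 and 54.1 FPKM in SHAM, 56.6, 59.9 and 75.1 in DN, with 51.9, 51.8 and 51.8 in DN-SM, so that its DN libraries were above all others (log2 fold change 0.23 in DN against SHAM, edgeR adjusted p = 0.224). Cct6a had 28.2, 26.9 and 14.9 FPKM in SHAM, 15.5, 17.0 and 20.3 in DN, with 26.1, 23.6 and 22.9 in DN-SM. The DN libraries and SHAM replicate 3 were the lowest (log2 fold change -0.48, edgeR adjusted p = 0.166). The ratio of Cct3 to Cct6a, picked after its values were seen, was 1.98, 1.65 and 3.62 in SHAM, 3.64, 3.52 and 3.70 in DN, with 1.99, 2.19 and 2.26 in DN-SM.

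Hsp60 and Hsp10 form the mitochondrial folding chamber and share the promoter region shown above. Hspd1 had 42.1, 35.4 and 26.4 FPKM in SHAM, 24.6, 27.8 and 38.4 in DN, with 39.4, 43.8 and 41.5 in DN-SM. Hspe1 had 83.5, 78.1 and 96.1 FPKM in SHAM, 71.1, 91.2 and 97.1 in DN, with 87.0, 82.9 and 78.3 in DN-SM. Every DN-SM library of Hspd1 was above every DN library, whereas those of Hspe1 overlapped. The ratio of Hspd1 to Hspe1 was 0.504, 0.454 and 0.275 in SHAM, 0.347, 0.305 and 0.395 in DN, with 0.452, 0.528 and 0.531 in DN-SM.

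**Figure D3:**
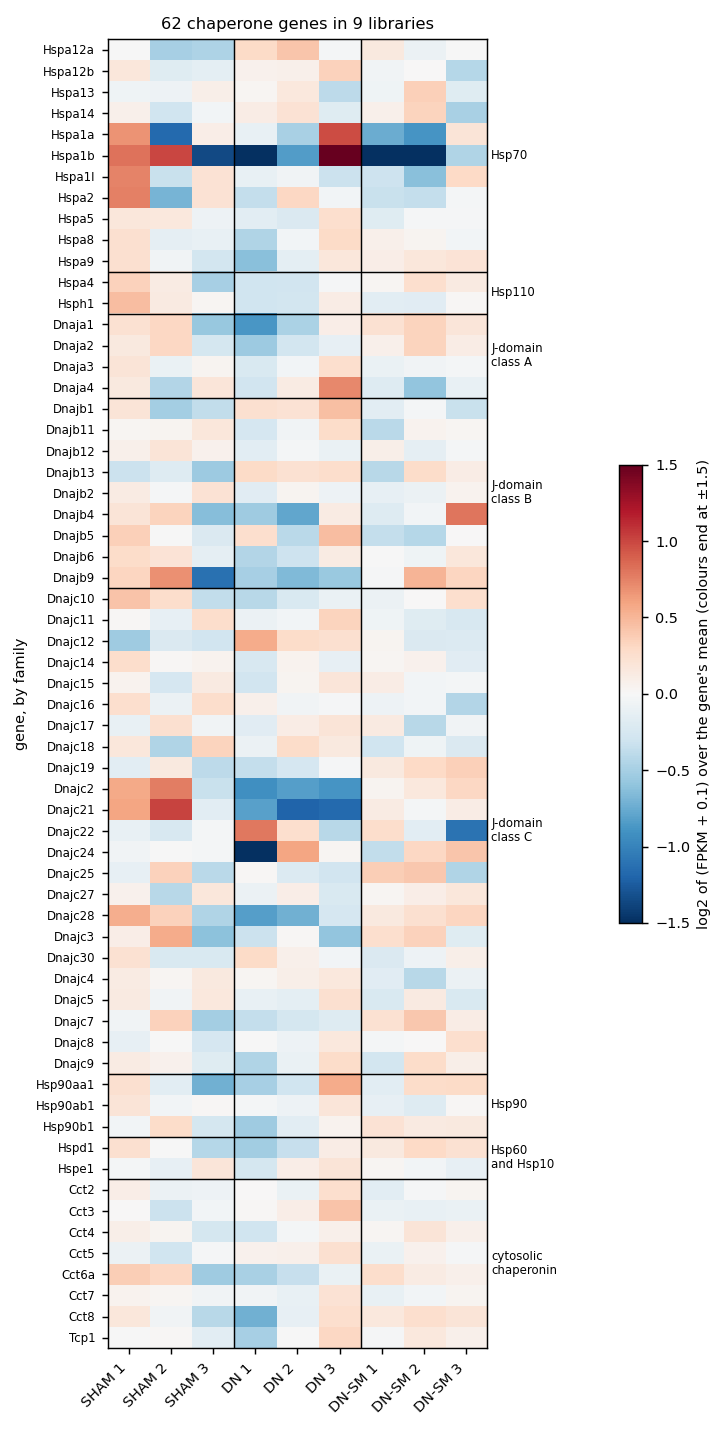
Each row is 1 of the 62 chaperone genes, grouped by family, and each column 1 library; colour is log2 of (FPKM + 0.1) over the gene's mean of the 9 libraries, ending at 1.5 in each direction. Dnajc2 and Dnajc21 are blue across all 3 DN libraries. SHAM replicate 3 is the lowest SHAM library for 32 of the 61 tested genes (52.5%, against 38.6% of all genes tested). DN replicate 1 is the lowest DN library for 37 (60.7%, against 47.8%).

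Stimulated and unstimulated injured muscle were compared next. The time of collection in DN is not given, so current and time after injury cannot be told apart in this contrast. The contrast shares the DN libraries with the comparison above, so its values are not independent of them. No chaperone gene was called by edgeR, where 0.00987% of all genes tested (1 gene) were. At an unadjusted p under 0.05 there were 18 of 61, 17 higher and 1 lower in DN-SM, beside 11.1% of all genes higher and 6.5% lower. Log2 fold changes were above 0 for 38 of the 61 genes (62.3%, against 48.7% of all genes) with a median of 0.12 beside -0.01. The 3 libraries of DN-SM lay entirely above those of DN for 13 genes, beside 11.4% of all genes, and entirely below for 5, beside 21.3%.

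The 13 genes were Dnajc2, Dnajc21, Dnajc28, Dnajc19, Dnajc7, Dnajc10, Dnaja1, Dnaja2, Dnajb9, Hspd1, Hspa4, Hsp90b1 and Cct6a. Dnaja2 had a log2 fold change of 0.58 in DN-SM against DN (SE 0.155, edgeR adjusted p = 0.144) and Hspd1 one of 0.56 (SE 0.153, edgeR adjusted p = 0.144). Dnajc19, part of the motor that imports proteins into mitochondria, had 5.6, 6.06 and 7.11 FPKM in DN and 8.03, 8.93 and 9.27 in DN-SM. All its DN-SM libraries were also above the SHAM libraries, 6.48, 8.02 and 5.49 FPKM, though SHAM replicate 2 came close. Its log2 fold change was 0.58 against DN (edgeR adjusted p = 0.162) and 0.40 against SHAM (0.346). The 5 genes with lower libraries were Cct3, Dnajb1, Dnajc12, Dnajc4 and Hspa12b.

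This count differed between fits. A fit of only DN and DN-SM called 11 of 61 chaperone genes, all higher in DN-SM, beside 7.21% of all genes. They were Dnajc2, Dnajc21, Dnajc28, Dnajc19, Dnajc7, Dnaja1, Dnaja2, Dnajb9, Hspa4, Hspd1 and Cct6a. Voom with sample weights called 9 (6.20% of all genes), and DESeq2 called Dnajc2 and Dnajc21 (2.32% of all genes). Leaving out SHAM replicate 3, which enters this contrast through the shared spread, gave 9 (4.04% of all genes), and leaving out SHAM replicate 2 gave 5 (3.29%). The limma fits on FPKM called none.

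**Figure D4:**
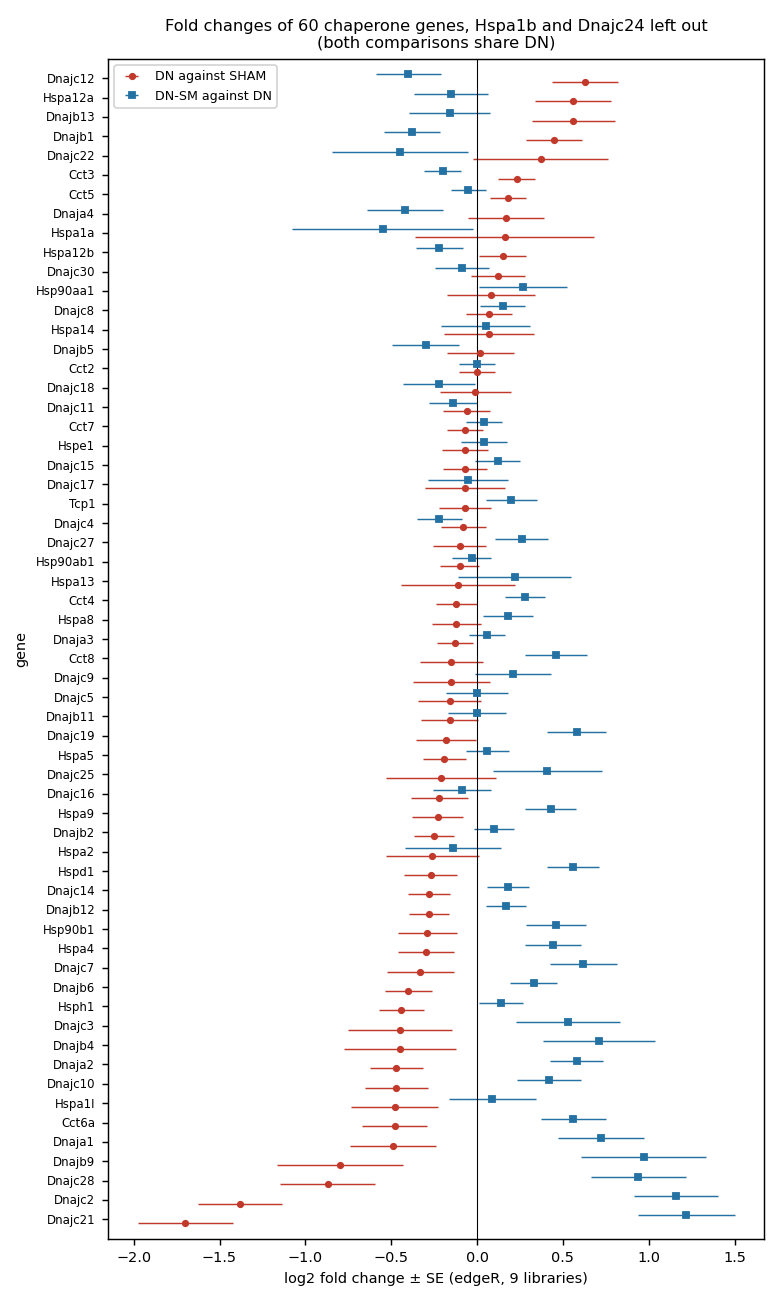
Log2 fold changes ± SE from edgeR for 60 of the chaperone genes, ordered by DN against SHAM (circles), with DN-SM against DN (squares); the comparisons share the DN libraries, so their values are not independent. Dnajc21 (-1.70) and Dnajc2 (-1.38) lie at the lower end and Dnajc12 (0.63) at the upper end of DN against SHAM.

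In DN-SM against SHAM edgeR called no chaperone gene, beside 0.839% of all genes, and none of the alternatives run called one. At an unadjusted p under 0.05 there were 3 (1 higher and 2 lower), beside 12.8% of all genes. By FPKM, libraries did not overlap for Dnajc19 (higher, beside 7.49% of all genes) and for Hsph1 and Dnajc4 (lower, beside 9.34%). Hsph1 had a log2 fold change of -0.30 (SE 0.129, edgeR adjusted p = 0.352) and Dnajc4 one of -0.30 (SE 0.131, edgeR adjusted p = 0.363). Hspd1 had a log2 fold change of 0.29 (SE 0.152, edgeR adjusted p = 0.453) and Dnajc16, a J-domain gene of the ER, one of -0.32 (SE 0.168, edgeR adjusted p = 0.468). Dnajc21 had -0.48 (SE 0.26, edgeR adjusted p = 0.478) and Dnajc2 -0.22 (SE 0.232, edgeR adjusted p = 0.738). These misses do not show that stimulated and sham muscle had equal levels.

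By place in the cell, the 12 chaperone genes of the ER all had log2 fold changes below 0 in DN against SHAM (median -0.25, from -0.80 to -0.01). Some of these lay within their SE of 0, such as that of Dnajc18 (-0.01, SE 0.208). The genes were Hspa5, Hspa13, Hsp90b1, Dnajb9, Dnajb11, Dnajb12, Dnajc3, Dnajc10, Dnajc14, Dnajc16, Dnajc18 and Dnajc25. In DN-SM against DN 9 of them were above 0 (median 0.20). None of the 12 passed in either comparison. Of all genes tested, 48.7% were above 0 in each comparison (median -0.01), and of the 61 chaperone genes 16 and 38 were. The 19 tested genes of ER folding and stress outside these families did not share the pattern. Among them 10 were above 0 and 9 below in DN against SHAM (median 0.0). In DN-SM against DN 8 were above and 11 below (median -0.13). Dnajb9, an ER J-domain protein and regulator of the stress sensor Ire1, had 6.62, 8.50 and 2.37 FPKM in SHAM, 3.69, 3.30 and 3.56 in DN, with 5.20, 7.57 and 6.60 in DN-SM. SHAM replicate 3 was the lowest of the 9 libraries, and the log2 fold changes of -0.80 in DN against SHAM and 0.97 in DN-SM against DN had edgeR adjusted p-values of 0.229 and 0.221. Of the 10 mitochondrial genes, 1 was above 0 in DN against SHAM (median -0.11) and 7 were in DN-SM against DN (median 0.09).

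SHAM replicate 3 moved these counts. Without it edgeR called 10 chaperone genes in DN against SHAM, all lower in DN, beside 11.5% of all genes changed and 7.29% lower. They were Dnajc2, Dnajc21, Dnajc28 (log2 fold change -1.11), Dnajb9 (-1.17), Cct6a (-0.70), Dnajc10 (-0.66), Dnaja2 (-0.61), Hsph1 (-0.51), Dnajb6 (-0.50) and Hspa4 (-0.49).

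The genes with a 3-unit heat shock element in the window had changes of unequal size. In DN against SHAM the log2 fold changes were -0.44 for Hsph1, -0.49 for Dnaja1, -0.27 for Hspd1, -0.12 for Cct4, -0.12 for Hspa8 and -0.07 for Hspe1, and none passed (edgeR adjusted p from 0.0759 to 0.786). The values of Hspa8 and Hspe1 turned to 0.02 and 0.01 without DN replicate 1. Dnaja1 and Hspd1 also had DN-SM libraries all above DN, with log2 fold changes of 0.72 and 0.56 in DN-SM against DN (edgeR adjusted p = 0.195 and 0.144). Genes with only a 2-unit form in the window lay on both sides of 0 in DN against SHAM, none of them called. Above 0 were Dnajb1 (0.45) and Cct5 (0.18). Below 0 were Cct6a (-0.48), Dnajb6 (-0.40), Hspa2 (-0.26), Hspa9 (-0.23), Dnajc27 (-0.10) and Dnajc18 (-0.01). Of the genes with an ER stress element, Hspa5 had a log2 fold change of -0.19 in DN against SHAM, Hsp90b1 one of -0.29 and Dnajc3, which restrains the stress kinase Perk, one of -0.45. None of these passed (edgeR adjusted p from 0.336 to 0.413).

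**Figure D5:**
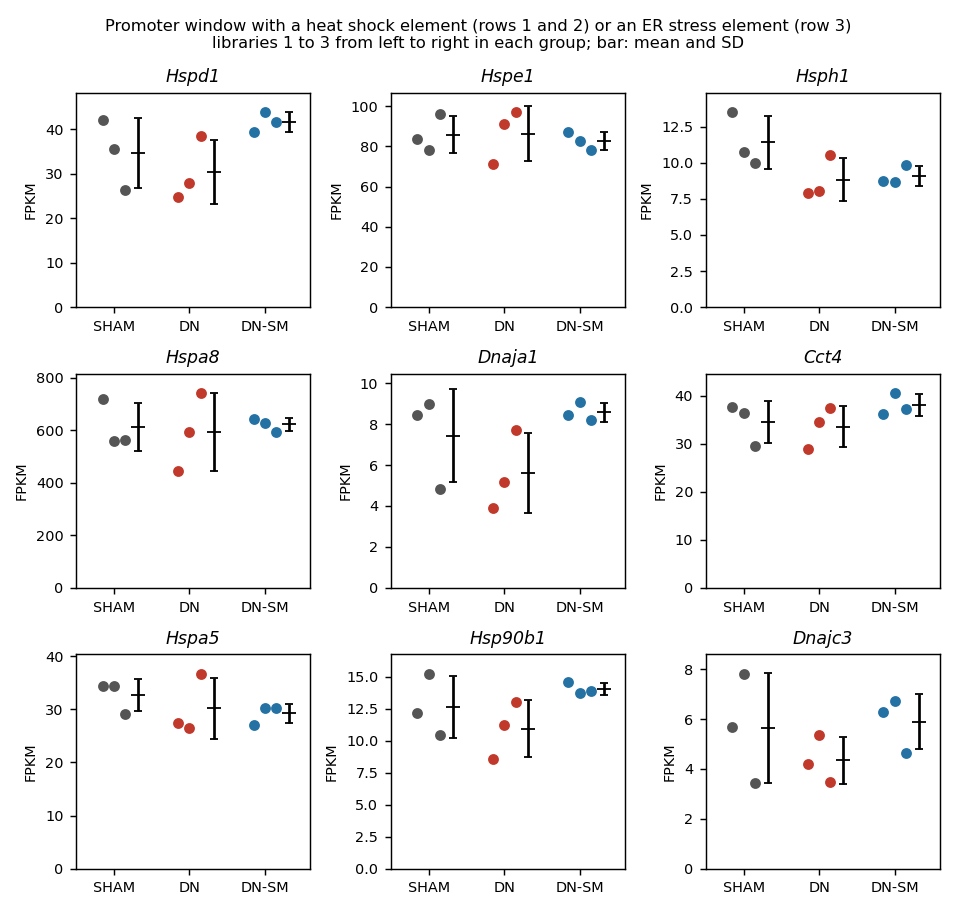
FPKM in each library (points, replicates 1 to 3 from left to right in each group; bar, mean and SD of 3) of the 6 genes with a heat shock element of 3 units in the promoter window and the 3 genes with an ER stress element; y axes start at 0. DN-SM libraries are above all DN libraries in Hspd1, Dnaja1 and Hsp90b1, and groups overlap in Hspe1, Hspa8 and Hspa5.

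Other genes of the same pathways were read from lists written beside the families. Of 21 tested co-chaperones of Hsp90 and Hsp70, 1 rose and 1 fell in DN against SHAM, where 4.26% of all genes tested changed. Fkbp5, an Hsp90-bound immunophilin of steroid receptor complexes, had 5.54, 5.91 and 4.49 FPKM in SHAM, 1.24, 1.84 and 1.82 in DN, with 2.72, 4.24 and 3.79 in DN-SM. The groups SHAM and DN were far apart, and Fkbp5 fell by 1.78 on the log2 scale (SE 0.214, edgeR adjusted p = 0.00235). This call held in all 21 alternatives run. In DN-SM against DN its log2 fold change was 1.23 (edgeR adjusted p = 0.144), which passed in 5 of the 21 alternatives, DESeq2 among them. Itgb1bp2 (melusin), a muscle co-chaperone of Hsp90, rose from 54.5 ± 13.1 to 84.7 ± 6.32 FPKM (log2 fold change 0.57, edgeR adjusted p = 0.0396) and had 81.2 ± 5.72 in DN-SM. Its call was lost in 12 of the 21 alternatives, among them without any 1 of the libraries except SHAM replicate 3 (adjusted p up to 0.132).

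Of 19 tested genes of ER folding and stress, 1 rose in DN against SHAM: Eif2ak3, which encodes the stress kinase Perk, from 0.397 ± 0.0643 to 0.827 ± 0.0839 FPKM (log2 fold change 0.99, edgeR adjusted p = 0.0445), where 2.57% of all genes tested rose. This call was lost in 14 of the 19 alternatives that tested the gene (its level is under the FPKM filter of the others), again without any 1 of the libraries except SHAM replicate 3 (adjusted p up to 0.136). None was called among the 4 tested Hsf and Hsf-binding genes, 10 nucleotide exchange factors of Hsp70, 11 prefoldin and chaperonin cofactors, 15 genes of mitochondrial import and proteolysis and 6 partners in clathrin uncoating. Hsf1, the master heat shock factor, had 39.7 ± 3.15 FPKM in SHAM muscle, 35 ± 1.73 in DN muscle and 32.5 ± 1.85 in DN-SM muscle (log2 fold change -0.25 in DN against SHAM, edgeR adjusted p = 0.192). In DN-SM against DN and in DN-SM against SHAM no gene of these lists passed in the edgeR fit.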

How the data were processed

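Expected counts and FPKM per gene were deposited for each library. Per the file headers, the expected count is the estimate the authors obtained with RSEM, without normalization, and the FPKM is scaled by the authors to transcript length and library size. Per the submitters' processing notes, GATK, HISAT2, RSEM and the build rn6 were used; versions are not given in the sources used here. A gene that a file does not list was taken as 0. RefSeq gave symbols for 13649 gene IDs directly and for 7 through accessions, and 96 had none.

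Expected counts were rounded to whole numbers and tested with the two-sided, robust quasi-likelihood F test of edgeR 4.0.16 (R 4.3.3), with TMM factors and filterByExpr (minimum count 10, minimum total 15), in 1 fit of 9 libraries with the group as the only term. The Benjamini-Hochberg method was applied over all 10129 genes in each of 3 comparisons. This test was tried on simulated data with genes changed by 1 or 2 on the log2 scale. At 1 it recovered 59 of 100 changed genes in DN against SHAM, 57 in DN-SM against DN and 60 in DN-SM against SHAM. At 2 it recovered 91, 96 and 91, and there were 12, 9 and 7 false calls. Each gene was drawn separately with its own spread, so no simulated library stood apart as some real ones did. The rates of recovery need not hold in the real data.

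Alternatives were RLE and upper-quartile factors, DESeq2 1.42.0, keeping all genes or those with 10 counts in 3 libraries, fitting just the 2 groups at hand, a block for the replicate number, limma-trend (limma 3.58.1) on log2(FPKM + 1) or log2(FPKM + 0.1) for genes with FPKM of 1 or more in 3 libraries, log2(FPKM + 1) for all genes, voom with sample weights, and dropping each library. Summing Hspa1a and Hspa1b was added after the data were seen.

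The genes and lists were chosen with earlier results of these data known. Named genes were those past the threshold, the 5 with the smallest p in each comparison, the 2 most abundant of each family and a fixed set of well-known chaperones. Cct4, Cct6a, Cct8, Dnajb9, Dnajc3, Dnajc7, Dnajc10, Dnajc18, Dnajc27, Hspa1l, Hspa2 and Hspa14 were picked after their values or promoters were seen. So were the genes named because libraries did not overlap. Protein sequences were not used here.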

Additional observations from a re-analysis of the deposited data

How the results depend on the processing

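In DN against SHAM the count of chaperone genes called was 1 with limma on log2(FPKM + 1) without a filter and ran from 0 to 10 when a library was left out. It was 0 without DN replicate 3, 1 without DN replicate 1 and 10 without SHAM replicate 3. In the other alternatives it was 2 or 3. In DN-SM against DN the count was 2 with DESeq2, 11 with only the 2 groups and 9 with voom, and ran from 0 to 9 when a library was left out (5 without SHAM replicate 2, 9 without SHAM replicate 3). In the other alternatives it was 0. In DN-SM against SHAM it was 0 in all 21 alternatives. The causes of these shifts were not tested.

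The signs of the fold changes printed were followed in the alternatives run, except those of Tek, Kdr, Myog, Dnajc18, Dnajc27 and Hspa2. The signs followed held, with 3 exceptions, none of them called. Dnajc2 in DN-SM against SHAM ran from -0.47 to 0.07 when a library was left out (0.07 without SHAM replicate 2). Hspa8 in DN against SHAM ran from -0.26 to 0.02 (0.02 without DN replicate 1). Hspe1 in DN against SHAM was 0.00 with each limma fit on FPKM (above 0 before rounding), 0.04 with voom, and ran from -0.16 to 0.04 when a library was left out (0.01 without DN replicate 1, 0.04 without SHAM replicate 3).

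Replicate numbers recur across groups, but the labels do not say that they pair libraries. Deviations of libraries with the same number correlated at -0.048 to 0.109 over 9 pairs, so the numbers were not taken as pairing. With the number as a replicate block the counts were 2, 0 and 0. Low genes such as Dnajc24 (mean count 7.78) were beyond the depth of these libraries, and real changes could be missed with 3 libraries a group. On simulated data 57 to 60 of 100 genes changed by 1 on the log2 scale were recovered and 91 to 96 of 100 changed by 2. No simulated library stood apart from its group, so these rates need not hold in the real data.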
